A study of Rattus norvegicus with 4 samples.

Results

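The genes described are 9 ligands of the bone morphogenetic protein (BMP) and growth differentiation factor (GDF) family: Bmp2, Bmp3, Bmp4, Bmp5, Bmp6, Bmp7, Gdf5, Gdf6 and Gdf10. They were taken by symbol from a table of 31007 gene rows and were proposed with earlier results of these data known. A row was found for 8 of the 9, and 7 reached the minimum level of a mean of 10 scaled reads over the libraries, among 8765 genes tested. Gdf6 was listed at 0 in every library and is treated as not measured, and Gdf5 was not analysed here.

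The libraries came from the proximal tibia of 2 Sprague-Dawley rats aged 10 weeks, both without any treatment named in the labels. Each rat gave 1 library from the superficial zone of its articular cartilage (SFZ), the layer at the joint surface, and 1 from the cartilage beneath it (deep AC), so there were 2 libraries per zone. The areas were cut from frozen sections by laser microdissection, and their RNA was amplified linearly before sequencing, so the number of reads does not equal the number of starting molecules. The sources used here do not say where the boundary between the areas was drawn. The comparison asks how expression at the joint surface differs from that of the tissue under it. In such bulk captures, fewer cells that express a gene and less RNA per cell cannot be told apart. Every SD given with a mean below is between these 2 rats. The limma SE beside it also draws on the variance of all genes tested, and is not that spread alone.

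BMPs and GDFs are secreted dimers of the transforming growth factor beta superfamily. They bind pairs of type I and type II serine/threonine kinase receptors, which phosphorylate SMAD proteins that enter the nucleus, and secreted antagonists such as noggin and gremlin hold the ligands away from the receptors. In joints the family is known for the condensation of cartilage, for setting the site of the joint and for driving chondrocytes towards hypertrophy and bone formation. Its members fall into subgroups by sequence: Bmp2 with Bmp4, Bmp5 with Bmp6 and Bmp7, Bmp3 with Gdf10, and Gdf5 with Gdf6.

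The deposited values are log2 values from which the median of each row had been subtracted, so they give differences between libraries and no level. Within a row, 0 marks that gene's median. Reads are given where they could be recovered from the values. Values under 1 scaled read had been raised to 1, the floor of the table, and where a library was at the floor the reads of the others follow from it. In SFZ the floor stands for 0 reads. In deep AC it stands for 0 or 1 read, and in either zone it could hide a fraction of a read. In other rows the reads given are the smallest whole numbers that match all differences to a relative tolerance of 1e-06, and the true reads may be these times a common factor. Every difference is SFZ minus deep AC, in log2 units, a ± is the SD over the 2 rats, and p-values are two-sided, from limma with the rat as a block, adjusted by Benjamini-Hochberg over the 8765 genes.

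Over all genes, 0 were called higher and 0 lower in SFZ at an adjusted p of 0.05 by limma (0% of those tested), and 365 and 423 had an unadjusted p under 0.05. With quantile normalization the limma counts were 17 higher and 33 lower. Rows with reads recovered held 3657593 to 3850302 reads per library. The SFZ libraries were less alike than the deep AC libraries: the log2 difference between rats had an SD over genes of 2.72 in SFZ and 1.44 in deep AC. SFZ libraries were also more often at the floor, for 891 and 827 of the genes tested, against 190 and 361 in deep AC. Markers of the zones went with the labels, but their lists were chosen with earlier results of these data known. They are thus no independent check of the captures. Of 8 superficial zone markers, 6 were tested and all 6 were higher in SFZ in both rats, against 25.2% of all genes tested. Among them was Prg4, which encodes lubricin, at 2.11 and 3.48. Of 13 hyaline cartilage markers, 10 were tested and all 10 were lower in SFZ in both rats, against 28.9% of all genes tested. Among them was Col2a1, the main collagen of cartilage, at -2.51 and -2.60. Matn3, also among them, reached the minimum level only through deep AC. Of 8 hypertrophic and calcified zone markers, 5 of 6 tested were at least 2-fold lower in SFZ in both rats, against 11.9% of all genes tested. Col10a1 was listed at 0.

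In outline, 4 of the 7 ligands tested, Bmp2, Bmp4, Bmp5 and Bmp7, were higher in SFZ in both rats, Bmp3 and Gdf10 were lower in both, and Bmp6 went in opposite directions. Among all genes tested, 25.2% were higher in both rats, 28.9% lower in both and 43.1% opposite in sign. For the same 4 ligands both SFZ libraries lay above both deep AC libraries, which held for 19.6% of genes tested. Bmp7 reached the minimum level only through its reads in SFZ rat 2, and Bmp6 only through SFZ rat 1. With both deep AC libraries at the floor, Bmp7 could not come out lower in SFZ, so its place in these counts was open in 1 direction only. Gdf10 was the only ligand with both SFZ libraries below both deep AC libraries, which held for 22.9%. The median difference of the 7 was 1.49 in rat 1 and 0.92 in rat 2, and that of all genes tested was -0.13 and 0.00. None of the 7 passed the adjusted threshold. Unadjusted, 4 were under 0.05, namely Bmp4, Bmp2 and Bmp5 among the higher (4.16% of all genes) and Gdf10 among the lower (4.83%).

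**Figure D1:**
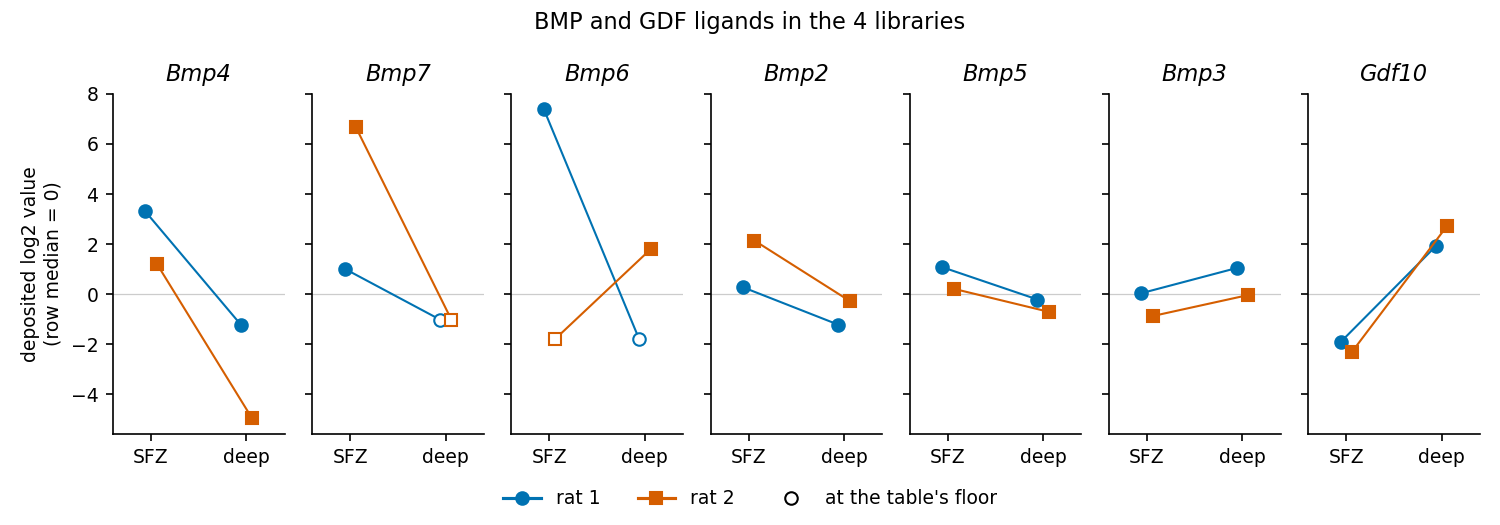
Deposited log2 values (vertical axis, row median at 0) of the 7 ligands tested, with SFZ left and deep AC right in each panel and 1 line per rat. Open symbols are libraries at the table's floor. Lines slope the same way in both rats for every ligand but Bmp6, and only Bmp3 and Bmp6 have SFZ and deep AC values that overlap.

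The stretch before the transcription start is printed for Bmp4 and Gdf10, the ligands with the lowest unadjusted p in each direction, and for Bmp5 and Bmp3, which differed in the same direction as these by less. Each is the 250 bases before the RefSeq start in GRCr8, a later build than that of the expression table, 5′ to 3′ on the gene's strand. Bmp4 is at chr15:22101934-22102183 on the minus strand, Bmp5 at chr8:85397379-85397628 on the plus strand, Gdf10 at chr16:9243262-9243511 on the plus strand and Bmp3 at chr14:11041283-11041532 on the minus strand. Capitals mark matches, on either strand, to the TATA box TATAAA, the CCAAT box CCAAT, the GC box GGGCGG, the SMAD element GGCGCC or the E box CACGTG.
Bmp4: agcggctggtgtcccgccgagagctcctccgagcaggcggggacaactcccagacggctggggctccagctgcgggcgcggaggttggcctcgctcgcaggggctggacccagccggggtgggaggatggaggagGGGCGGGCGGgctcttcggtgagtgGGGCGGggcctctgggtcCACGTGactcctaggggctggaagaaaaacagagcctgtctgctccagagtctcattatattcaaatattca
Bmp5: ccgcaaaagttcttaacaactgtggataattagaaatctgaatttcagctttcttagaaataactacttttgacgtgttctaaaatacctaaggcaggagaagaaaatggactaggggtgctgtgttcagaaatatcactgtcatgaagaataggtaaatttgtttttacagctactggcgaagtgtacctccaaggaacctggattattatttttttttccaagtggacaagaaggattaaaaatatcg
Gdf10: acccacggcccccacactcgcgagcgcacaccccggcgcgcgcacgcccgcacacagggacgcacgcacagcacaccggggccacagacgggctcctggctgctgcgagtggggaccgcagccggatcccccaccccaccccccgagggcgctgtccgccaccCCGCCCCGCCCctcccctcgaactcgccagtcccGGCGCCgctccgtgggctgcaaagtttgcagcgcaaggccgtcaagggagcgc
Bmp3: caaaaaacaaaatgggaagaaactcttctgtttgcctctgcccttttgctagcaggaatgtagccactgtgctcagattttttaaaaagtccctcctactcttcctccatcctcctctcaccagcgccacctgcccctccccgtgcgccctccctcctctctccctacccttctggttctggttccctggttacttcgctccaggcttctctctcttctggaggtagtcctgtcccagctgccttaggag
The Bmp4 window held 3 matches to the GC box, of which a pair overlap, and 1 to the E box. The Gdf10 window held 2 GC boxes, which overlap, and 1 SMAD element, a sequence that BMP SMADs are known to bind. The Bmp5 and Bmp3 windows held 0 matches to these 5 motifs. Among 33469 promoters of the same length, 30.5% held a GC box, 8.69% a SMAD element, 5.59% an E box, 12.9% a TATA box and 34.0% a CCAAT box. G and C made up 66.4% of the Bmp4 window and 35.2% of the Bmp5 window, 76.0% of the Gdf10 window and 53.6% of the Bmp3 window, so neither pair shared a base composition. RefSeq promoters matched 5 of the 9 ligands. Letters in a window are a description and say nothing of what binds there.

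Bmp4 had the highest mean difference of the 7 as deposited, but its order with Bmp7 is not settled: both deep AC libraries of Bmp7 were at the floor, and with quantile normalization Bmp7 stood at 5.63 and Bmp4 at 5.43. Bmp4 encodes a ligand that drives chondrocyte differentiation and bone formation, and lies on chromosome 15 (22283171 to 22286757, minus strand, rn4). Its log2 values were 3.30 and 1.21 in SFZ of rat 1 and rat 2, and -1.21 and -4.97 in deep AC. Both SFZ libraries were above both deep AC libraries, with 2.43 between the lower SFZ value and the higher deep AC value. The 2 SFZ values were 2.09 apart and the 2 deep AC values 3.75 apart. The difference was 4.52 in rat 1 and 6.18 in rat 2, or 22.9-fold and 72.5-fold higher in SFZ. Its mean was 5.35 ± 1.18 (SD, n = 2 rats; limma SE 0.55), and the limma adjusted p was 0.139 (unadjusted p = 0.000318). Of the genes tested, 44 had a higher mean difference. No whole reads with a sum of up to 20000 matched its values, so its level is not known. Its values with quantile normalization, and so its order with Bmp7 there, rest on a level assigned from a bound. That level also entered the prior of the main fit, which is trended on the level, and so the limma SE and p given here. With an untrended prior the limma adjusted p of Bmp4 was 0.252.

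Bmp2, the closest relative of Bmp4 and a strong inducer of cartilage and bone, lies on chromosome 3 (121372692 to 121381235, plus strand, rn4). Its smallest matching reads were 346 and 1289 in SFZ of rat 1 and rat 2, against 126 and 262 in deep AC. The log2 values were 0.27 and 2.14 in SFZ and -1.22 and -0.27 in deep AC, and the zones did not overlap, with 0.55 between the nearest libraries. SFZ was 2.82-fold higher in rat 1 and 5.34-fold higher in rat 2. The mean log2 difference was 1.96 ± 0.65 (SD, n = 2 rats; limma SE 0.65), with a limma adjusted p of 0.539 (unadjusted p = 0.0333). Rat 2 had the higher Bmp2 value in both zones and the lower Bmp4 value in both.

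Bmp5, Bmp6 and Bmp7 form the next subgroup, and their patterns were unlike. Bmp5, a ligand best known from the short ear mouse with its reduced ear cartilage, lies on chromosome 8 (80593053 to 80717015, plus strand, rn4). Its log2 values were 1.08 and 0.21 in SFZ of rat 1 and rat 2, against -0.21 and -0.71 in deep AC. The zones did not overlap, although the nearest libraries were 0.43 apart, less than the 0.86 between the SFZ libraries. SFZ was 2.45-fold higher in rat 1 and 1.90-fold higher in rat 2, a mean log2 difference of 1.11 ± 0.26 (SD, n = 2 rats; limma SE 0.41; limma adjusted p = 0.550, unadjusted p = 0.0481). Its level is not known, as for Bmp4, and the limma SE and p of Bmp5 rest on an assigned level in the same way. With an untrended prior its limma adjusted p was 0.701.

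Bmp7, also called osteogenic protein, which raises matrix synthesis in cultured chondrocytes, lies on chromosome 3 (163723429 to 163799567, minus strand, rn4). It had 4 reads in SFZ rat 1 and 204 in SFZ rat 2, while in deep AC both libraries were at the floor, that is 0 or 1 read. Both SFZ libraries were thus above both deep AC libraries, but by a few reads in rat 1. The log2 differences against the floor were 2.03 and 7.67, a mean of 4.85 ± 3.99 (SD, n = 2 rats; limma SE 2.44; limma adjusted p = 0.582). No fold is given, since the floor does not tell 0 reads from 1. The value rested on SFZ rat 2, being 7.67 without SFZ rat 1 and 2.03 without SFZ rat 2.

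Bmp6, a ligand made by hypertrophic chondrocytes and, in liver, a regulator of iron balance, lies on chromosome 17 (32380199 to 32689295, minus strand, rn4). It had 571 reads in SFZ rat 1 and 0 in SFZ rat 2. In deep AC it was at the floor in rat 1 and had 13 reads in rat 2. The zones overlapped, since SFZ held the highest library and also 1 of the 2 at the floor. The differences were 9.19 in rat 1 and -3.58 in rat 2, a mean of 2.80 ± 9.03 (SD, n = 2 rats; limma SE 3.57; limma adjusted p = 0.825), and the mean turned to -1.79 without SFZ rat 1. Such a split was common in SFZ: 326 of the genes tested, 3.72%, had 1 SFZ library at the floor and the other at 100 scaled reads or more, against 15 genes with that split in deep AC.

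Gdf10 and Bmp3 form a subgroup of their own and were the 2 ligands lower in SFZ in both rats. Gdf10, also called Bmp3b, lies on chromosome 16 (9558730 to 9570656, plus strand, rn4). Its smallest matching reads were 91 and 71 in SFZ of rat 1 and rat 2, against 1334 and 2542 in deep AC. The log2 values were -1.92 and -2.31 in SFZ and 1.92 and 2.74 in deep AC. Both SFZ libraries were below both deep AC libraries by at least 3.84, while the libraries of a zone were 0.39 apart in SFZ and 0.82 apart in deep AC. Deep AC was 14.3-fold higher than SFZ in rat 1 and 33.0-fold in rat 2. The mean log2 difference was -4.44 ± 0.85 (SD, n = 2 rats; limma SE 0.65), with a limma adjusted p of 0.243 (unadjusted p = 0.00142). Of the genes tested, 450 had a lower mean difference. With quantile normalization Gdf10 and Bmp4 passed the threshold (limma adjusted p = 0.0406 and 0.00815), at similar differences. That scaling used an assigned level for Bmp4, whose level is not known.

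Bmp3, known as a ligand that opposes the bone-forming BMPs, lies on chromosome 14 (12065635 to 12090295, minus strand, rn4). Its smallest matching reads were 860 and 467 in SFZ of rat 1 and rat 2, against 1772 and 905 in deep AC. The log2 values were 0.04 and -0.87 in SFZ and 1.04 and -0.04 in deep AC, so SFZ rat 1 was slightly above deep AC rat 2 and the zones overlapped. Within each rat SFZ was lower, by a similar amount: -1.01 in rat 1 and -0.84 in rat 2. The mean was -0.92 ± 0.12 (SD, n = 2 rats; limma SE 0.42; limma adjusted p = 0.567, unadjusted p = 0.0845). The libraries of a zone differed by 0.91 in SFZ and 1.08 in deep AC, with rat 1 the higher in each, so the rats differed about as much as the zones did. Its difference was close in size to that of Bmp5 in the other direction, and with quantile normalization the mean was -0.99 for Bmp3 and 0.99 for Bmp5. The spread between the rats' differences was smaller for Bmp3 than for the other 6 ligands as deposited.

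**Figure D2:**
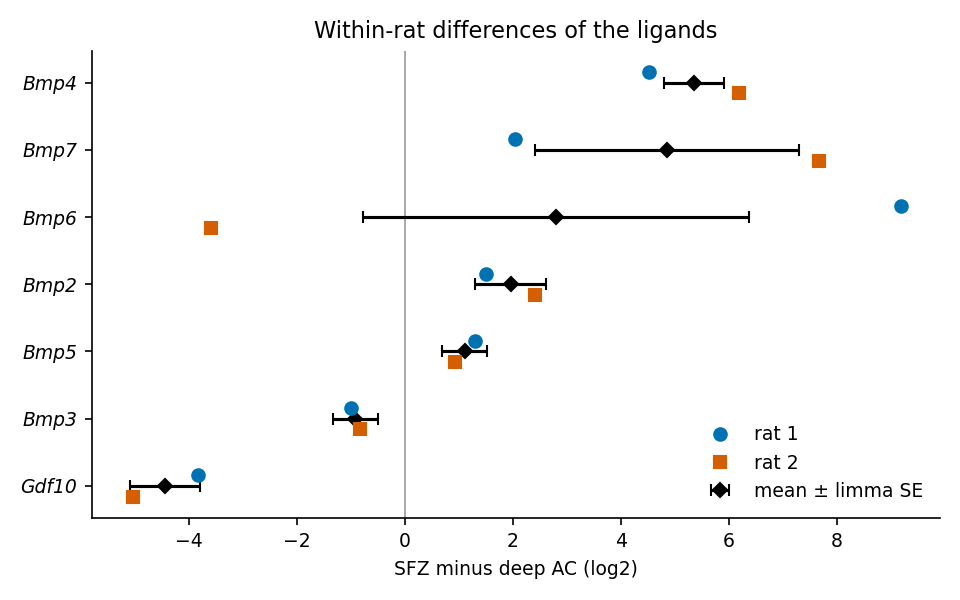
SFZ minus deep AC (log2, horizontal axis) for each ligand tested, ordered by the mean, with rat 1 as circles, rat 2 as squares and the mean with its limma standard error as a diamond with bars. The limma standard error also draws on all genes tested and is not the spread between the rats alone. Bmp4 (5.35) and Bmp7 (4.85, against deep AC libraries at the floor) stand highest and Gdf10 (-4.44) lowest, and the points of Bmp6 lie on both sides of 0.

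Gdf6, which with Gdf5 specifies joint positions in limb development, lies on chromosome 5 (23739175 to 23756140, plus strand, rn4). A listing of 0 in every library can be no reads, reads at the floor, or a row that was not counted, and the table does not tell these apart.

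Differences as large as those of Bmp4 and Gdf10 were present in other genes. By Euclidean distance between log2 values over the 4 libraries, each centred on its mean, the 3 genes most like Bmp4 were RGD1309708 (distance 0.51), Bik (1.22), a cell death gene, and Gfra1 (1.33), a receptor gene for glial cell line-derived neurotrophic factor. Their differences in rat 1 and rat 2 were 4.17 and 6.80, 3.92 and 6.82, and 2.84 and 5.40. The 3 genes most like Gdf10 were Etv4 (0.23), an ETS transcription factor gene, LOC100360582 (0.26), annotated as a cytosolic nucleotidase, and Omd (0.26), which encodes osteomodulin, a proteoglycan of mineralized matrix. Their differences were -3.53 and -4.95, -4.16 and -5.09, and -3.54 and -5.27. With 4 libraries such likeness is a description.

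**Figure D3:**
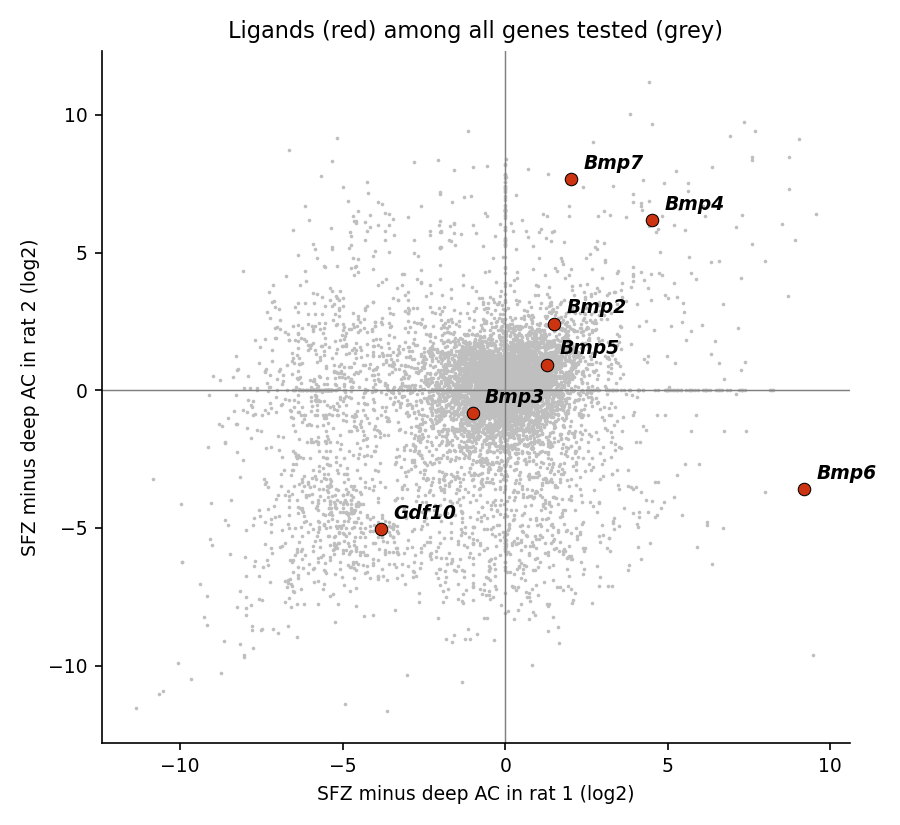
SFZ minus deep AC in rat 1 (horizontal axis) against rat 2 (vertical axis), both log2, for the 8765 genes tested (grey) and the 7 ligands (red). Bmp2, Bmp4, Bmp5 and Bmp7 lie in the upper right, Bmp3 and Gdf10 in the lower left, and Bmp6 in the lower right.

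The rest of the pathway was read from 6 lists, of which no gene passed the adjusted threshold. A gene is named where SFZ differed from deep AC by at least 2-fold, in 1 direction, in each rat, which held for 6.42% of genes tested as higher in SFZ and 11.9% as lower. Of 18 other BMP, GDF and activin ligands 6 were tested, with 0 at least 2-fold higher and 2 lower. Bmp8a had smallest matching reads of 1 and 11 in SFZ against 36 and 148 in deep AC (differences -5.13 and -3.63; limma adjusted p = 0.560). With quantile normalization Bmp8a stood at -1.31 in rat 1 and -2.77 in rat 2. Gdf1, which in mouse shares a transcript with Cers1, had 3 and 0 reads in the SFZ libraries, while deep AC had 32 and 17 (-3.38 and -3.97; limma adjusted p = 0.615). With the same scaling Gdf1 stood at 0.34 in rat 1 and -0.96 in rat 2. Gdf1 reached the minimum level only through its reads in deep AC, so as deposited it could not come out higher in SFZ in both rats.

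Of 16 receptors and co-receptors 10 were tested. None was higher in SFZ in both rats, 2 were at least 2-fold lower in both, and 6 had opposite signs. Bmpr1a, a type I receptor for Bmp2 and Bmp4, had smallest matching reads of 81 and 86 in SFZ against 220 and 223 in deep AC (differences -1.40 and -1.26; limma adjusted p = 0.704). Its libraries agreed closely within each zone, and the zones did not overlap. Amhr2, the type II receptor for anti-Müllerian hormone, had 0 reads in both SFZ libraries, against 308 and 255 in deep AC (-8.26 and -7.88 against the floor; limma adjusted p = 0.417). It reached the minimum level only through deep AC. With both SFZ libraries at the floor it could not come out higher in SFZ, so its place in the count of lower receptors was open in 1 direction only.

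Of 18 secreted antagonists and modulators 8 were tested, with 0 at least 2-fold higher in SFZ in both rats and 2 lower. Both of these bind Bmp2, Bmp4 and Bmp7. Nog, which encodes noggin, had smallest matching reads of 18 and 142 in SFZ against 883 and 1406 in deep AC (differences -5.58 and -3.19; limma adjusted p = 0.398). Grem1, which encodes gremlin, had 1 and 0 reads in the SFZ libraries, while deep AC had 1662 and 2265 (limma adjusted p = 0.239). Grem1 reached the minimum level only through deep AC, so it could not come out higher in SFZ in both rats. This limits its count as lower here and among the BMP target genes below. The zones did not overlap for either gene. Another 3 of the 8 were higher in SFZ in both rats as the values stand, each by less than 2-fold in rat 2, and were chosen for mention after their values were seen. Crim1, whose product binds BMPs at the cell surface, stood at 1.12 and 0.19 (limma adjusted p = 0.697), and Twsg1, which encodes the BMP-binding protein twisted gastrulation, at 0.74 and 0.27 (limma adjusted p = 0.736). Fst, which encodes the activin-binding protein follistatin, stood at 2.65 in rat 1 and at 0.00 in rat 2, with 1 read in SFZ and deep AC at the floor (limma adjusted p = 0.873). That floor can stand for 1 read, so the direction of Fst in rat 2 is not settled. With quantile normalization Crim1 stood at -0.03 in rat 2, and Fst at 4.98 and 2.21 in rat 1 and rat 2. The remaining 3 had opposite signs in the rats, so the antagonists showed no common direction. The median of the 8 was 0.78 in rat 1 and -0.01 in rat 2, against -0.13 and 0.00 for all genes tested.

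Of 8 genes listed for proteolytic processing 6 were tested, with 1 at least 2-fold higher and 1 lower. The list includes Pcolce, whose product is not itself a protease. Tll1, a tolloid-like protease that cleaves chordin, had smallest matching reads of 5631 and 4163 in SFZ against 192 and 412 in deep AC. Its differences were 4.91 and 3.45 (limma adjusted p = 0.204). Pcsk6, a proprotein convertase, had 710 and 54 in SFZ against 3162 and 5807 in deep AC, with differences of -2.12 and -6.63 (limma adjusted p = 0.468). The other 4 were between these: 3 had opposite signs in the rats and 1 was lower in both by less than 2-fold in rat 2.

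Of 14 SMADs and regulators 7 were tested, with 1 at least 2-fold higher and 0 lower. It was Ppm1a, a phosphatase that acts on SMADs, with smallest matching reads of 1764 and 639 in SFZ against 566 and 144 in deep AC (differences 1.68 and 2.27; limma adjusted p = 0.469). Of 18 BMP target genes, which include Grem1, Nog and members of the SMAD list, 13 were tested, with 2 at least 2-fold higher and 3 lower. Msx1, a homeobox gene, had smallest matching reads of 402 and 568 in SFZ against 35 and 50 in deep AC (differences 3.56 and 3.62; limma adjusted p = 0.488). Dlx3, a homeobox gene of bone and epidermis, stood at 1.60 and 1.88 (limma adjusted p = 0.704), and at 3.97 in rat 2 with quantile normalization. The third of the lower genes beside Grem1 and Nog was Atoh8, a helix-loop-helix factor gene, at -4.57 and -1.46 (limma adjusted p = 0.550). The Id genes, the best known direct targets, gave no common direction and were chosen for mention after their values were seen. Id1 stood at -0.71 and -0.48, Id2 at -0.38 and -0.45, Id3 at 0.90 and 0.17 and Id4 at -0.06 and -2.01.

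**Figure D4:**
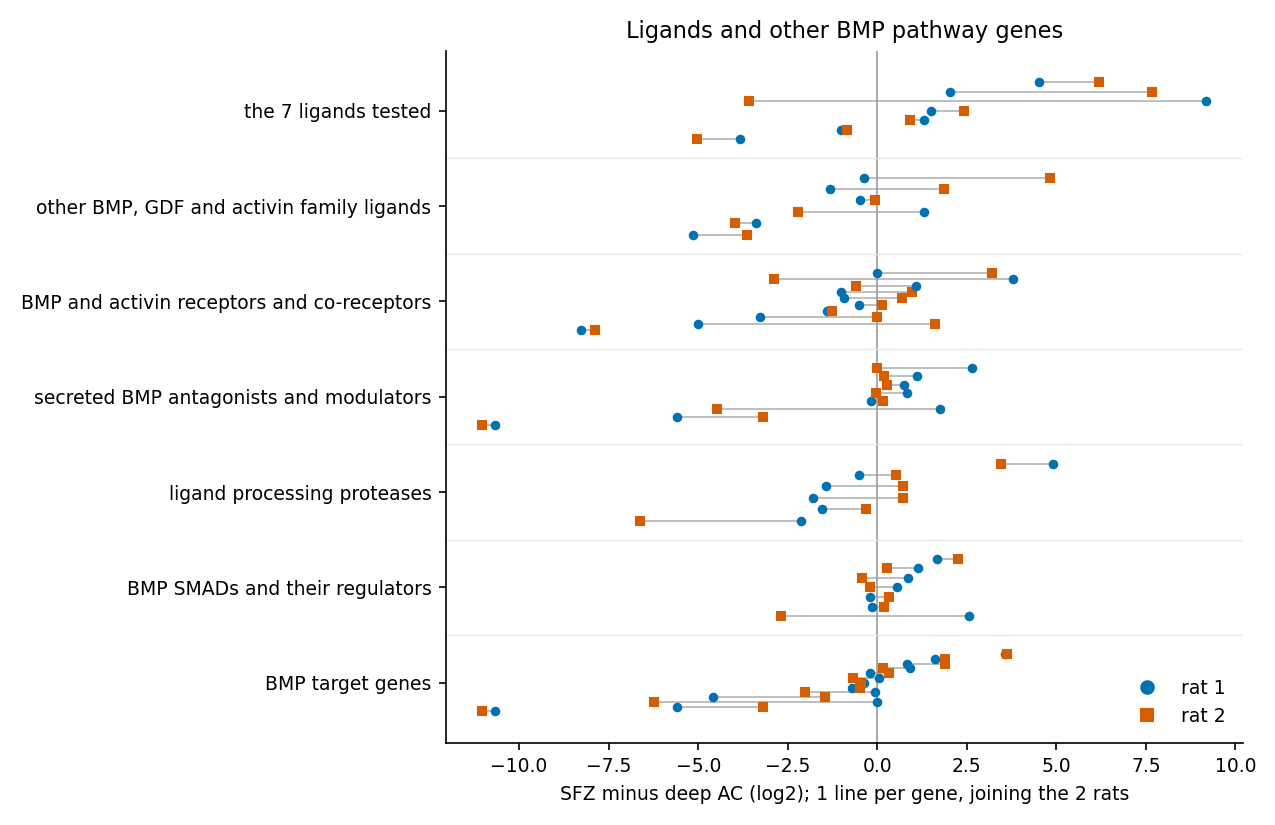
SFZ minus deep AC (log2, horizontal axis) of the 7 ligands tested and of the tested genes of 6 other BMP pathway lists, 1 line per gene joining rat 1 (circle) and rat 2 (square). Genes that 2 lists hold are drawn in both. The receptors lie on both sides of 0 and 6 of 10 change sign between the rats, and the lowest antagonist, at -10.66 and -11.03, is Grem1.

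Markers of other cells that a capture at the joint surface could hold were read beside the ligands. Of 8 synovial and tendon fibroblast markers 5 were tested, 3 higher and 2 lower in SFZ in both rats, and Cd34 and Thy1 were listed at 0. In the 4 with reads recovered, scaled reads summed to 2289 and 3377 in SFZ and 4393 and 4402 in deep AC. These sums leave out Col15a1 (1.74 and 2.25) and Col3a1 (0.37 and 0.26), which were higher in SFZ. They mix Dcn, with smallest matching reads of 1029 and 193 in SFZ against 3402 and 3380 in deep AC, and Scx, also lower, with Pdgfra, at 1118 and 3117 against 795 and 1167. Of 7 macrophage markers 6 were tested, 1 higher and 2 lower in both rats, and their sums were 3066 and 1731 in SFZ and 3808 and 1825 in deep AC. C1qa and C1qb had 119 and 91 reads in SFZ rat 1, the library in which Bmp6 was high, and were at the floor elsewhere. In the same library Lyz2 had smallest matching reads of 1649, against 146 in deep AC rat 1. The other tested macrophage markers were lower there than in deep AC rat 1: Cd68 had 0 reads against 34, Ptprc 27 against 113 and Mrc1 1112 against 3524. Of 8 osteoblast and osteocyte markers 5 were tested, 2 higher and 2 lower in both rats, with sums of 1431 and 64.1 in SFZ and 750.2 and 122.7 in deep AC. Sost and Sp7 were listed at 0. Col1a1 had smallest matching reads of 1113 and 58 in SFZ against 8 and 13 in deep AC. Col1a2, whose reads were not recovered and are not in the sums, stood at 0.99 and 0.45. Dmp1 and Mepe went the other way. Dmp1 had smallest matching reads of 1 and 1 in SFZ against 531 and 53 in deep AC, and Mepe had 0 and 0 reads against 27 and 15. Mepe reached the minimum level only through deep AC and could not come out higher in SFZ. Phex stood at 0.65 and -5.24. Of 6 striated muscle markers 2 were tested: Ckm had 96 reads in SFZ rat 2, the library in which Bmp7 was high, and was at the floor elsewhere, Tnni2 stood at -9.66 and -10.47, and Acta1 and Tnnt3 were listed at 0. Of 5 endothelial markers 1 was tested, Pecam1 at -0.94 and 0.16, and Cdh5 and Vwf were listed at 0. Of 3 erythroid markers none was tested. The part of other cells in the ligand differences was not tested.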

How the data were processed

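The members and gene lists were chosen with earlier results of these data known. The authors deposited log2 values in a table titled TMM, for trimmed mean of M values, a scaling by 1 factor per library. The build is rn4, as the submitters' processing notes give it. The sources used here name no aligner, counting program or use of strand, so overlapping genes and near-identical copies could share reads. Row medians were 0. In 1397 rows above 0 in 1 library, 94.0% to 96.7% of values were whole reads times a constant of the library (1.02 and 1.00 in SFZ, 0.996 and 0.923 in deep AC) to a relative tolerance of 1e-05, with lower values set to 1. The floor fixed the level of 3467 rows, whole reads with a sum of up to 20000 that of 5337, and 1985 had a level set only by a bound. Intervals are not given, since reads of amplified RNA are not independent molecules. Genes averaging 10 or more scaled reads were tested in limma 3.58.1 (R 4.3.3; zone and rat as terms, prior trended on the recovered level, 1 residual degree of freedom). The design had foreseen normalized values; log2 values were tested as they stand. The rat is a block because both zones came from the same animals, per the labels; the between-rat differences in SFZ and deep AC had a correlation across genes of 0.05. All 9 ligands were named, and list genes by the 2-fold rule given above. Alternatives were no block, other minimum levels, quantile normalization, pseudocounts of 1 and 0.1 and an untrended prior. Others were leaving out each library, fitted without the block, and, chosen after seeing the data, only rows with reads recovered. Methods were tested on simulated data. For limma these were drawn with a fixed dispersion and no effect of the rat, unlike these libraries, so they do not measure its error rate here. No column of other samples was present. Figures were drawn with matplotlib 3.10.9.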

Additional observations from a re-analysis of the deposited data

How the results depend on the processing

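No ligand passed the adjusted threshold without the replicate block, where 0 genes were called higher and 0 lower, as with it, and the block changed no other call. Directions of the mean held for every ligand under every alternative in which it was fitted but 1: Bmp6 stood at -1.79 without SFZ rat 1. With quantile normalization Bmp4 passed at 5.43 (limma adjusted p = 0.00815) and Gdf10 at -4.35 (0.0406), and 17 genes were called higher and 33 lower. Rows with a level set only by a bound, Bmp4 and Bmp5 among them, entered this scaling at that bound. The same bound entered the trended prior of the main fit. Over the alternatives that kept all 4 libraries the limma adjusted p of Bmp4 ran from 0.00815 to 0.300 and that of Gdf10 from 0.0406 to 0.357. On rows with reads recovered, an alternative chosen after seeing the data, 2 genes were called lower. Leaving out 1 library gave 0 genes higher and 0 to 70 lower, the 70 without deep AC rat 2, and the lowest and highest values were 1.02 and 2.89 for Bmp2, -1.46 and -0.38 for Bmp3, 3.47 and 7.22 for Bmp4, 0.68 and 1.54 for Bmp5, -1.79 and 7.40 for Bmp6, 2.03 and 7.67 for Bmp7, and -4.85 and -4.03 for Gdf10. With quantile normalization the median difference of all genes in rat 1 was 0.05, against -0.13 as deposited, and among genes at least 2-fold apart alike in both rats 43.3% were lower in SFZ (696 lower, 912 higher), against 65.0% as deposited (1044 lower, 563 higher). The causes were not tested. Bmp6 and Bmp7 were at the floor in 2 libraries each, where the table does not resolve their level.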
